A study of Arabidopsis thaliana with 10 samples.

Results

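The genes described here build and loosen the plant cell wall: 57 genes of Arabidopsis thaliana whose single gene symbol in the platform annotation places them in the TBL, EXPA, EXPB, EXLA, EXLB, XTH, CSL or GAUT families, out of 13350 genes named in this way on the array. They comprised 22 TBL genes, 10 EXPA, 4 EXPB, 3 EXLA, 1 EXLB, 9 XTH, 7 CSL and 1 GAUT gene. The same rule looked for CESA and FLA genes and found 0 of either. The RefSeq gene table of the TAIR10.1 assembly lists 170 genes with a symbol of these 10 families, so the 57 are a part of them. Each gene had 1 probe set, so no choice between probe sets was needed.

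RNA came from seedlings harvested at 12 days of age and grown without stress, and was hybridised to Affymetrix arrays, 10 in all. FL3 was a line that constitutively expressed TaSIN in full length. A TaSIN shortened so that its transmembrane motif was missing was constitutively expressed in the lines dC26 and dC27, which the labels write with a Δ in place of the d. The controls were VC, a transgenic line with an empty vector, and untransformed Col-0. Each line had 2 arrays, described by the submitters as independent biological replicates. FL3 is a single transgenic line and each dC line is another, so a difference of a line from the controls cannot be told apart from the effect of where its transgene lies. In RNA of seedlings, fewer cells of a type and less RNA per cell cannot be told apart either.

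Growing plant cells are held by a wall of cellulose microfibrils tied together by xyloglucan, xylan and mannan and embedded in pectin. Expansins (EXPA and EXPB) let such walls yield under turgor without cutting the polymers, while EXLA and EXLB are expansin-like proteins of the same superfamily. XTH enzymes cut xyloglucan chains and rejoin them. CSL proteins make the backbones of wall glycans: members of the CSLA group make mannans, those of the CSLC group make the glucan backbone of xyloglucan, and CSLD proteins act in tip-growing cells such as root hairs. GAUT proteins belong to the galacturonosyltransferase family, which acts in pectin synthesis. TBL proteins share a domain with TRICHOME BIREFRINGENCE, and the characterised ones are mostly enzymes that place acetyl groups on wall polysaccharides.

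Levels are the intensities the authors deposited, on a linear scale, and differences are on the scale of log2(intensity + 16). A gene was called when the Benjamini-Hochberg adjusted p of limma over all 22746 probe sets was under 0.05. Across the series 34.8% of values lay under 16, where a log2 difference understates the change. Of the wall genes, 31 were above 16 on all 10 arrays, 17 were below 16 on all 10, among them 8 TBL and 4 XTH genes, and 9 lay on either side. Those 17 were kept in the test. Replicate arrays correlated at 0.993 in FL3, 0.986 in dC26, 0.971 in dC27, 0.991 in VC and 0.991 in Col-0 over all probe sets. The dC27 arrays stood further apart than those of any other line, with an SD of 0.415 for the log2 difference between them over all probe sets and of 0.873 over the wall genes. In the other lines the SD over the wall genes was 0.271 in FL3, 0.283 in dC26, 0.223 in VC and 0.359 in Col-0.

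Compared over the lines, the wall genes did not move as a block. Their median log2 difference from the 4 control arrays was -0.04 in FL3, 0.03 in dC26 and 0.05 in dC27, against -0.01, 0.00 and 0.00 over all probe sets. No wall gene was called in FL3 (0 of 57 by limma), where 2.69% of all probe sets were called, and 9 had an unadjusted p under 0.05, as 13.2% of all probe sets did. In dC26 1 of 57 was called, as higher. This was 1.75% of the wall genes, against 2.71% of all probe sets called and 1.91% called as higher. In dC27 15 of 57 were called, 9 higher and 6 lower, which is 26.3% against 16.7% of all probe sets (8.2% higher and 8.49% lower). For the mean of the dC lines 8 of 57 were called, 6 higher and 2 lower, or 14.0% against 13.1% of all probe sets (6.91% higher and 6.15% lower). The last share is close to that of all probe sets.

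The calls in dC27 fell in 5 of the 8 families. They were 7 of the 22 TBL genes, 4 of the 10 EXPA genes, 2 of the 4 EXPB genes, the single EXLB gene and 1 of the 9 XTH genes, with 0 of the 7 CSL, 0 of the 3 EXLA and 0 of the 1 GAUT genes. Family medians in dC27 ran from -0.81 for EXLB1 and -0.01 for TBL to 0.26 for EXPA and 0.41 for EXPB. The TBL, EXPA and XTH families each held genes with large differences of opposite sign, so a family median says little of its members. In TBL the differences in dC27 ran from -1.03 to 1.30, in EXPA from -1.60 to 0.94 and in XTH from -1.29 to 1.02.

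**Figure D1:**
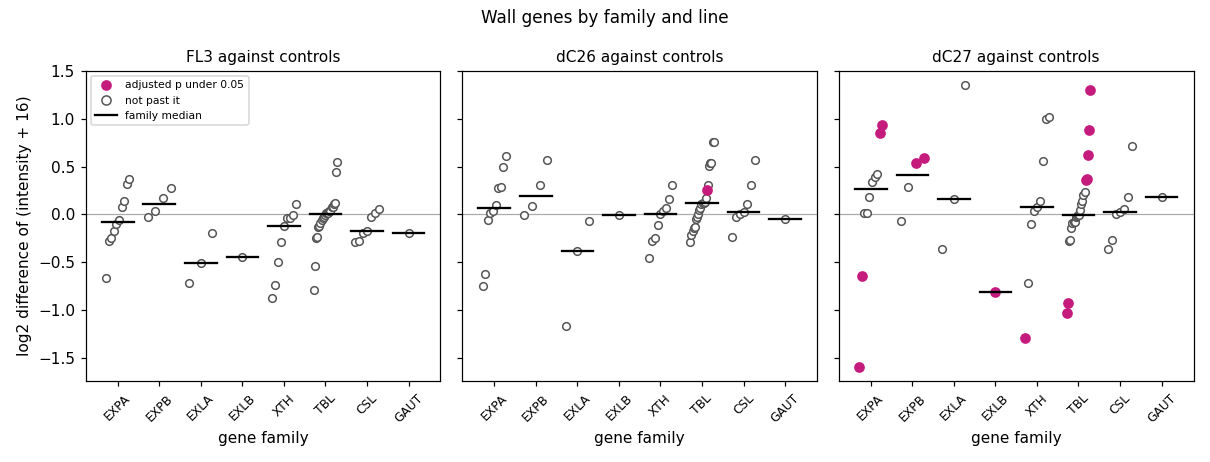
Log2 difference of (intensity + 16) of the 57 wall genes from the 4 control arrays, by family, in FL3, dC26 and dC27; each point is a gene, filled where the adjusted p was under 0.05, and bars are family medians. Filled points number 0 in FL3, 1 in dC26 and 15 in dC27, where EXPA and TBL hold called genes on both sides of 0.

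Among the 10 α-expansins, which loosen walls of growing tissue, 2 genes were called as higher and 2 as lower in the dC lines than in the controls. Of all probe sets 6.91% were called as higher and 6.15% as lower. EXPA8 (AT2G40610) had intensities of 81.8 and 150 in dC26 and 69.8 and 41.9 in dC27, against 148 and 252 in VC and 215 and 190 in Col-0. The dC26 array at 150 overlapped the lowest control array, and both dC27 arrays lay below every control, as in 18.7% of all probe sets. The gene fell by 1.17 ± 0.21 (SE) on the log2 scale in the dC lines (limma, Benjamini-Hochberg adjusted p = 0.0074) and by 1.60 ± 0.26 in dC27 (adjusted p = 0.0035). In dC26 the difference was -0.75 and did not pass (adjusted p = 0.17), and the difference between the 2 dC lines did not pass either. The call in the dC lines held whichever array was left out, and ended without both dC27 arrays (limma, adjusted p = 0.11).

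EXPA16 (AT3G55500), called as lower in the dC lines and in dC27, read 17.4 and 16.4 in dC26 and 20.0 and 13.2 in dC27, against 39.4 and 47.1 in VC and 34.1 and 21.6 in Col-0. All 4 dC arrays lay below all 4 control arrays, which was the case in this direction for 6.65% of all probe sets, and the levels were close to the dim end of the scale. The log2 difference was -0.63 ± 0.14 in the dC lines (adjusted p = 0.015, limma) and -0.64 ± 0.17 in dC27 (adjusted p = 0.028). In dC26 it was -0.62 ± 0.17 and did not pass (adjusted p = 0.085). Against Col-0 alone the difference in the dC lines was -0.41 and did not pass, and the call in the dC lines ended when VC replicate 2, the first Col-0 array or the second dC26 array was left out (limma, adjusted p from 0.053 to 0.061), and without both dC27 arrays (-0.62, adjusted p = 0.058).

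EXPA15 (AT2G03090) and EXPA4 (AT2G39700) were higher, and most of this came from dC27. EXPA15 read 84.0 and 86.8 in dC26 and 118 and 172 in dC27, against 67.3 and 67.5 in VC and 58.9 and 75.0 in Col-0. Every dC array was above every control, as in 7.76% of all probe sets. The log2 difference was 0.61 ± 0.15 in the dC lines (limma, adjusted p = 0.026) and 0.94 ± 0.18, or 1.91-fold, in dC27 (adjusted p = 0.0083). EXPA4 read 133 and 135 in dC26 and 221 and 251 in dC27, against 120 and 160 in VC and 101 and 120 in Col-0. Of the dC arrays only those of dC27 lay above all controls, which they did in 4177 of all 22746 probe sets. The log2 difference of EXPA4 was 0.85 ± 0.14 in dC27 (adjusted p = 0.0041), 0.47 ± 0.12 in the dC lines (adjusted p = 0.027) and 0.10 in dC26, short of the threshold (adjusted p = 0.78).

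The calls of EXPA4 and EXPA15 in the dC lines were the least stable of these. That of EXPA4 ended without VC replicate 1, Col-0 replicate 1, dC26 replicate 2 or dC27 replicate 2 (limma, adjusted p from 0.057 to 0.10), and that of EXPA15 without either VC array, Col-0 replicate 1, dC26 replicate 2 or dC27 replicate 2 (adjusted p from 0.053 to 0.10). Neither passed in a 2-group fit without the FL3 arrays, which pooled the 2 dC lines as replicates and pooled VC with Col-0 (limma, adjusted p = 0.24 for EXPA4 and 0.11 for EXPA15). In dC27 alone EXPA4 held whichever array was left out, and EXPA15 did so except without dC27 replicate 2 (adjusted p = 0.055).

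EXPA7 and EXPA18, expansins of root hairs, did not pass with all arrays. EXPA18 (AT1G62980) read 10.6 and 17.7 in FL3, 27.7 and 54.0 in dC26 and 28.6 and 37.1 in dC27, against 23.4 and 16.7 in VC and 17.9 and 23.5 in Col-0. All 4 dC arrays were above all 4 control arrays, as in 7.76% of all probe sets, and above both FL3 arrays. The log2 difference from the controls of 0.52 ± 0.16 did not pass (limma, adjusted p = 0.060). EXPA18 did pass in the dC lines with the dimmest probe sets left out and without dC26 replicate 1. EXPA7 (AT1G12560) was dim, with 14.0 and 34.4 in dC26 and 11.4 and 28.8 in dC27, against 13.3 and 10.9 in VC and 7.55 and 15.2 in Col-0. In both dC lines replicate 2 read higher than replicate 1, and the difference of 0.42 did not pass (adjusted p = 0.20). Without dC27 replicate 1 both passed, at 0.60 for EXPA7 and 0.58 for EXPA18 (adjusted p = 0.049 each), as did EXPB1 with 0.62 (adjusted p = 0.041); EXPB1 also passed without dC26 replicate 1. EXPB1 (AT2G20750), a β-expansin, read 21.4 and 49.6 in dC26 and 15.2 and 37.4 in dC27, against 16.1 and 16.7 in VC and 15.8 and 21.6 in Col-0.

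The remaining 4 of the 10 α-expansins found by name were not called in any comparison. The RefSeq table lists 24 EXPA genes, so others may be on the array under another name. EXPA9 and EXPA20 read between 36.9 and 83.5 and between 16.1 and 31.2 over the 10 arrays, and EXPA21 and EXPA24 were below 16 on all of them.

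In the TBL family 4 of 22 genes were called as higher in the dC lines and 0 as lower, against 6.91% and 6.15% of all probe sets. TBL36 (AT3G54260) read 324 and 373 in dC26 and 622 and 422 in dC27, against 214 and 189 in VC and 155 and 247 in Col-0. TBL37 (AT2G34070) read 542 and 476 in dC26 and 567 and 538 in dC27, against 313 and 384 in VC and 360 and 358 in Col-0. TBL39 (AT2G42570) read 212 and 321 in dC26 and 304 and 268 in dC27, against 140 and 122 in VC and 144 and 194 in Col-0. In each of these 3 genes the lowest dC array was above the highest control array, as in 7.76% of all probe sets. TBL36 rose by 1.03 ± 0.18 on the log2 scale, or 2.04-fold (limma, adjusted p = 0.0065). The rises were 0.82 ± 0.15 for TBL39 (adjusted p = 0.0067) and 0.57 ± 0.10 for TBL37 (adjusted p = 0.0060).

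TBL21 (AT5G15890) was called as well, at levels where the array gave little signal. It read 6.67 and 6.76 in FL3, 10.8 and 10.8 in dC26 and 14.4 and 11.2 in dC27, against 7.95 and 6.04 in VC and 5.13 and 6.68 in Col-0. All 10 values were below 16, so the log2 difference of 0.31 ± 0.05 (adjusted p = 0.0031, limma) is a small step at the dim end of the scale. It was also the only wall gene called in dC26, by 0.26 ± 0.06 (adjusted p = 0.047). That call ended when any array of VC, Col-0, FL3 or dC26 was left out (adjusted p from 0.073 to 0.31). The gene beside it, TBL19 (AT5G15900), with 0 protein-coding genes between them in the RefSeq table, was below 16 on all arrays and was not called.

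The 4 TBL calls in the dC lines held whichever of the 10 arrays was left out, and held in the 2-group fit that pooled the dC lines and pooled the controls. Without both dC27 arrays TBL21 and TBL39 passed, while TBL36 and TBL37 did not (limma, adjusted p = 0.060 and 0.054), and TBL39 did not pass against Col-0 alone (adjusted p = 0.050). In dC26 alone the values pointed the same way without passing, with 0.76 ± 0.22 for TBL36 (limma, adjusted p = 0.11), 0.76 ± 0.18 for TBL39 (adjusted p = 0.058) and 0.51 ± 0.12 for TBL37 (adjusted p = 0.059). TBL39 passed in dC26 when either dC27 array or dC26 replicate 1 was left out, and TBL37 and TBL39 did with the dimmest probe sets left out. In dC27 they were 1.30 ± 0.22 for TBL36, 0.88 ± 0.18 for TBL39 and 0.62 ± 0.12 for TBL37, and all 3 passed. TBL39 did not pass there without dC27 replicate 1 (adjusted p = 0.052). None of the 3 differed between dC26 and dC27 past the threshold. The comparisons of dC26, dC27 and FL3 with the controls use the same control arrays.

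**Figure D2:**
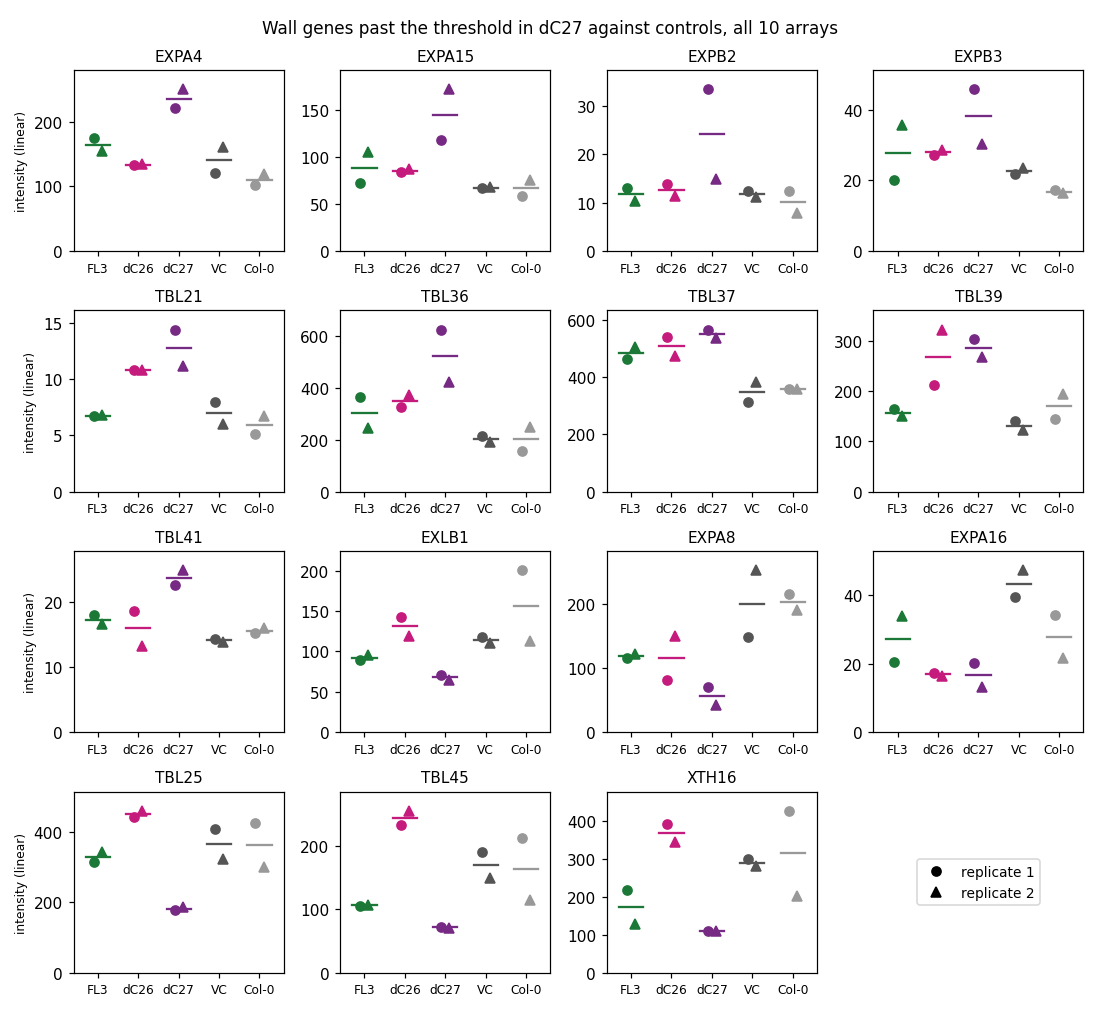
Deposited intensities on a linear scale for the 15 wall genes called in dC27 against the controls, by line; points are single arrays (circle, replicate 1, triangle, replicate 2) and bars are means of 2 arrays. TBL36, TBL37 and TBL39 are above the controls in both dC lines, while TBL25, TBL45 and XTH16 are low in dC27 and not in dC26.

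TBL25, TBL45 and XTH16 were lower in dC27 than in the controls, and differed between dC26 and dC27. TBL25 (AT1G01430), which belongs to the TBL group shown to acetylate mannan, read 443 and 460 in dC26 and 179 and 187 in dC27, against 408 and 324 in VC and 427 and 302 in Col-0. TBL45 (AT2G30010) read 233 and 255 in dC26 and 72.7 and 70.9 in dC27, against 191 and 150 in VC and 213 and 115 in Col-0. XTH16 (AT3G23730), a xyloglucan endotransglucosylase/hydrolase, read 391 and 346 in dC26 and 111 and 109 in dC27, against 300 and 282 in VC and 427 and 204 in Col-0. In FL3 TBL25 read 314 and 343, TBL45 106 and 107 and XTH16 218 and 130, and none of the 3 was called. Both FL3 arrays of TBL45 also lay below every control, as 11.6% of all probe sets did in FL3. The dC27 replicates lay within a few units of each other in all 3 genes and below every control array, as 18.7% of all probe sets did. The log2 differences from the controls were -0.93 ± 0.15 for TBL25 (adjusted p = 0.0036), -1.03 ± 0.20 for TBL45 (adjusted p = 0.0084) and -1.29 ± 0.26 for XTH16 (adjusted p = 0.0097), all by limma. Each of these calls held whichever array was left out.

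The direct test of dC26 against dC27, which compares only these 4 arrays but takes its spread from all 10, called 5 wall genes, 4 higher and 1 lower in dC26. This was 8.77% of the wall genes, against 2.95% of all probe sets (2.12% higher and 0.822% lower). The differences were 1.61 ± 0.30 for XTH16 (limma, adjusted p = 0.027), 1.57 ± 0.23 for TBL45 (adjusted p = 0.012) and 1.23 ± 0.18 for TBL25 (adjusted p = 0.0093). CSLA03 (AT1G23480), of the mannan synthase group, was higher by 0.93 ± 0.20 (adjusted p = 0.042), with 117 and 87.8 in dC26 against 45.4 and 46.2 in dC27. EXPA4 was lower in dC26, with a log2 difference of -0.75 ± 0.17 (adjusted p = 0.046). Against the controls, CSLA03 passed in neither line, with 0.56 in dC26 and -0.36 in dC27, where VC read 67.9 and 52.6 and Col-0 72.8 and 62.4.

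These 5 calls rested unequally on single arrays. Those of TBL25 and TBL45 ended only without dC26 replicate 2 (limma, adjusted p = 0.064 and 0.083). That of XTH16 ended without either VC array, either dC26 array or dC27 replicate 1 (adjusted p from 0.055 to 0.12). Those of CSLA03 and EXPA4 ended without any 1 of the 10 arrays (adjusted p from 0.054 to 0.11 and from 0.052 to 0.15). Markers of green tissue were also at a higher level in dC26 than in dC27: the summed intensity of the 4 photosynthesis genes with a named probe set (LHCB4.1, PSAE-1, PSBY and RCA, of 8 listed) was 17722 to 19883 in dC26 and 12407 to 13373 in dC27, with 15754 to 15906 in FL3, against 16363 to 17487 in VC and 14617 to 15667 in Col-0. LHCB4.1, a light-harvesting protein, fell by 0.50 on the log2 scale in dC27 against the controls (adjusted p = 0.012). Between dC26 and dC27 the 4 genes differed by 0.48 to 0.65, short of the threshold (adjusted p from 0.058 to 0.086). The part of this in the wall gene results was not tested.

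The remaining calls in dC27 were small or rested on few arrays. EXLB1 (AT4G17030), the single expansin-like B gene, read 71.1 and 64.7 in dC27, 143 and 119 in dC26 and 89.0 and 95.1 in FL3. The controls read 117 and 110 in VC and 200 and 113 in Col-0. Both FL3 arrays were below every control, as in 11.6% of all probe sets. The FL3 difference of -0.45 did not pass (limma, adjusted p = 0.36). Its log2 difference in dC27 was -0.81 ± 0.19 (limma, adjusted p = 0.020), which did not pass against VC alone (adjusted p = 0.11) nor without VC replicate 1 or either dC27 array (adjusted p from 0.051 to 0.075). EXPB3 (AT4G28250) read 20.0 and 35.8 in FL3, 27.3 and 28.7 in dC26 and 45.9 and 30.4 in dC27, against 21.7 and 23.4 in VC and 17.2 and 16.4 in Col-0. Every dC array was above every control, as in 7.76% of all probe sets. In the dC lines its 0.45 did not pass (limma, adjusted p = 0.052). It passed there with the dimmest probe sets left out or a pseudocount of 1, and not with the replicate block or quantile normalization. In dC27 the difference was 0.59 ± 0.16 (adjusted p = 0.034). That call ended without dC27 replicate 1 or any 1 of the 4 control arrays (adjusted p from 0.073 to 0.21).

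EXPB2 (AT1G65680) read 33.5 and 14.8 in dC27, against 12.5 and 11.2 in VC and 12.5 and 7.81 in Col-0, so that its 0.54 ± 0.16 (limma, adjusted p = 0.046) came mainly from 1 array. The call was lost when any array other than dC27 replicate 2 was left out (adjusted p from 0.063 to 0.28). TBL41 (AT3G14850) read 22.6 and 24.8 in dC27, against 14.4 and 13.8 in VC and 15.2 and 15.9 in Col-0, a rise of 0.37 ± 0.08 (adjusted p = 0.017). It did not pass without Col-0 replicate 1 or dC27 replicate 2 (adjusted p = 0.052 and 0.078). EXPA16 in dC27 did not pass without VC replicate 2, Col-0 replicate 1 or dC27 replicate 2 (adjusted p from 0.075 to 0.15).

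Between the 2 dC27 arrays 7 wall genes differed at least 2-fold on the log2(intensity + 16) scale, all 7 with replicate 1 higher, which was the case for 2.37% of all probe sets. They were all 3 EXLA genes, XTH18, XTH19, CSLC04 and CSLD2. On the same scale no wall gene differed this far between the replicates of FL3, dC26 or VC, and between the Col-0 arrays XTH18 and XTH16 did. The deposited intensities of some dim genes also differed at least 2-fold. In dC27 these were EXPB2, with 33.5 in replicate 1 and 14.8 in replicate 2, and EXPA7 and EXPB1, with replicate 2 higher. In dC26 they were EXPA7 and EXPB1, again with replicate 2 higher, and in Col-0 EXPA7. EXLA1 (AT3G45970) read 368 and 237 in FL3, 222 and 203 in dC26 and 1195 and 115 in dC27, against 428 and 364 in VC and 469 and 833 in Col-0. EXLA3 (AT3G45960) read 207 and 7.13 in dC27, against 11.4 and 11.4 in VC and 11.5 and 13.8 in Col-0. Its dC27 value of 207 was the only one of the 10 above 16, the others being at the dim end. EXLA2 (AT4G38400) read 154 and 34.0 in dC27, against 67.0 and 70.5 in VC and 66.1 and 63.0 in Col-0. EXLA1 and EXLA3 are neighbours, with 0 protein-coding genes between them in the RefSeq table.

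**Figure D3:**
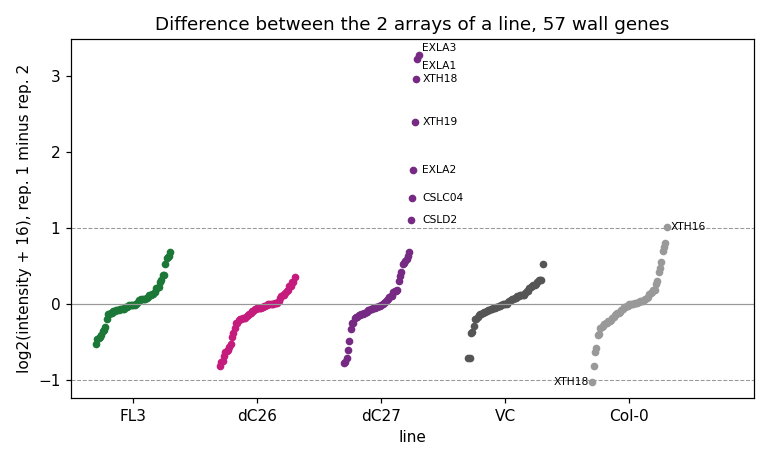
Log2 difference of (intensity + 16) between replicate 1 and replicate 2 of each line for the 57 wall genes, sorted within a line; dashed lines mark 2-fold and genes beyond them are named. In dC27 7 genes lie above the upper line, up to 3.27 for EXLA3, and none below the lower one.

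XTH18 (AT4G30280) and XTH19 (AT4G30290), also neighbours with 0 genes between them, split in the same way. XTH18 read 57.1 and 31.3 in FL3, 34.8 and 38.3 in dC26 and 388 and 36.4 in dC27, against 42.7 and 33.3 in VC and 51.7 and 121 in Col-0. XTH19 read 76.5 and 60.0 in FL3, 82.3 and 81.5 in dC26 and 527 and 87.6 in dC27, against 74.1 and 67.4 in VC and 117 and 183 in Col-0. In both genes and in EXLA1 Col-0 replicate 2 was the next highest array after dC27 replicate 1. Cross-reading between the probe sets of such neighbours was not tested.

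Because the arrays of dC27 disagreed, the sign of the EXLA genes in dC27 depended on which array was used. With 1 dC27 array left, the standard error and p come from the spread of the other lines, and that array is assumed to vary as they do. With both arrays the log2 differences from the controls were -0.37 for EXLA1, 0.16 for EXLA2 and 1.36 for EXLA3, and none passed. Without dC27 replicate 1 they were -1.97 ± 0.29, -0.72 ± 0.18 and -0.28 ± 0.07 and all passed as lower (limma, adjusted p = 0.0034, 0.031 and 0.031). Without dC27 replicate 2 they were 1.24 ± 0.29, 1.04 ± 0.18 and 2.99 ± 0.10 and all passed as higher (adjusted p = 0.019, 0.0047 and 3.5e-07). XTH18 and XTH19 had 1.02 and 1.00 with both arrays, -0.46 and -0.20 without replicate 1, where they did not pass, and 2.49 and 2.19 without replicate 2, where they did. No direction is given for these 5 genes in dC27.

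CSLC04 (AT3G28180), of the group that makes the xyloglucan backbone, read 949 and 352 in dC27, against 279 and 314 in VC and 387 and 430 in Col-0. Its difference of 0.71 did not pass (limma, adjusted p = 0.18), and was 0.02 without replicate 1 and 1.41 without replicate 2 (adjusted p = 0.98 and 0.0024). CSLD2 read 302 and 132 in dC27, against 193 and 160 in VC and 162 and 186 in Col-0, and passed with neither array alone. In dC26, whose replicates were close in the EXLA genes, all 3 lay below the controls on every array, as 12.2% of all probe sets did. In FL3 EXLA2 read 43.5 and 40.7 and EXLA3 9.33 and 7.68. These also lay below every control, as 11.6% of all probe sets did in FL3, and neither was called. EXLA1 had a log2 difference of -1.17 in dC26 (adjusted p = 0.40), which passed when either dC27 array was left out of the shared estimate of spread, or both were (adjusted p = 0.023 without both). TBL34, TBL39 and TBL21 also passed in dC26 under each of these 3 settings.

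**Figure D4:**
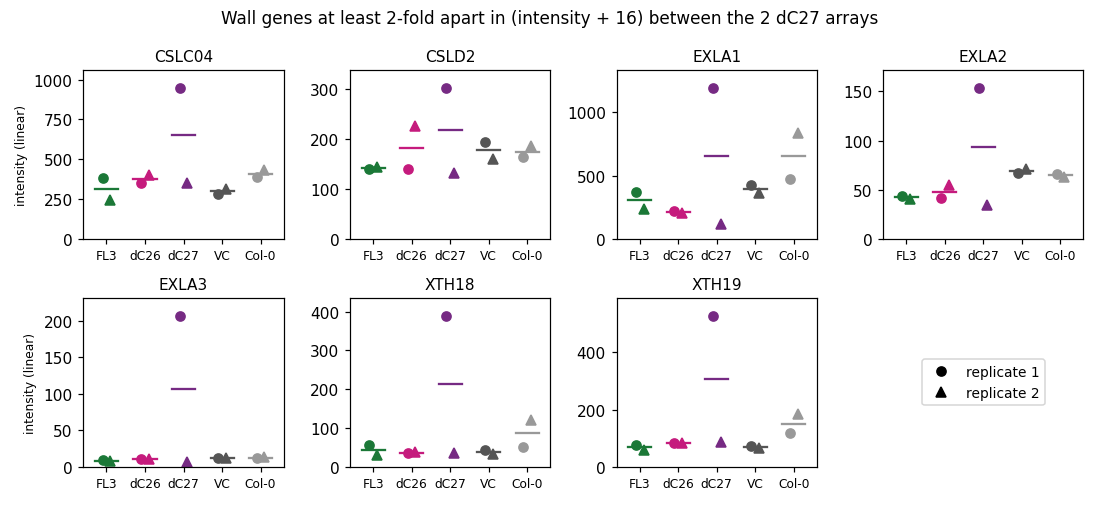
Deposited intensities on a linear scale for the 7 wall genes at least 2-fold apart in intensity + 16 between the 2 dC27 arrays; points are single arrays (circle, replicate 1, triangle, replicate 2) and bars are means of 2 arrays. In each panel dC27 replicate 1 is the highest of the 10 arrays, and in EXLA1, XTH18 and XTH19 Col-0 replicate 2 comes next. In EXLA1, EXLA2, EXLA3 and CSLD2 dC27 replicate 2 is the lowest of the 10.

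In FL3, the line with full-length TaSIN, no difference from the controls passed. The largest were those of XTH33 and TBL38. XTH33 (AT1G10550) read 20.7 and 18.9 in FL3, against 50.5 and 30.3 in VC and 83.5 and 45.6 in Col-0, a log2 difference of -0.88 ± 0.24 (limma, adjusted p = 0.10). TBL38 (AT1G29050) read 66.3 and 47.2 in FL3, against 86.8 and 152 in VC and 93.9 and 112 in Col-0, a difference of -0.79 ± 0.20 (adjusted p = 0.084). In both genes the FL3 arrays lay below all controls, which held for 11 of the 57 wall genes and for 11.6% of all probe sets, and 2 wall genes lay above all controls against 13.3% of all probe sets. TBL38 passed without VC replicate 1 (adjusted p = 0.040), and TBL45 passed as lower without Col-0 replicate 2.

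For genes called in the dC lines, the FL3 values were 0.55 ± 0.22 for TBL36, 0.44 ± 0.12 for TBL37, 0.37 ± 0.14 for EXPA4 and -0.67 ± 0.26 for EXPA8, none of which passed (limma, adjusted p from 0.10 to 0.32). EXPA15 had 0.31 ± 0.18 (adjusted p = 0.55), EXPA16 -0.25 ± 0.17 (adjusted p = 0.62), TBL39 0.07 (adjusted p = 0.93) and TBL21 0.02 (adjusted p = 0.95), and these 4 did not pass either. FL3 and the dC lines share their controls, so these values are not independent. Tested directly, FL3 against the dC lines called 0 of 57 wall genes by limma, with 0.207% of all probe sets called, and 8 at an unadjusted p under 0.05, against 10.8% of all probe sets. The FL3 arrays were below all dC arrays in 10 wall genes and above them in 1, against 8.45% and 8.16% of all probe sets. Among these 10 the log2 differences were -0.86 ± 0.50 for XTH19 (limma, adjusted p = 0.59), -0.79 ± 0.19 for EXPA18 (adjusted p = 0.18), -0.74 ± 0.18 for TBL39 (adjusted p = 0.17) and -0.29 ± 0.06 for TBL21 (adjusted p = 0.096). Without dC27 replicate 2 the count was 7 and without dC26 replicate 1 it was 3, in either case all lower in FL3, with 2.39% and 0.936% of all probe sets called; the 7 include EXLA2, EXLA3, XTH18, XTH19 and CSLC04, which split between the dC27 arrays.

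The remaining families showed little that passed. Of the 9 XTH genes XTH20, XTH21, XTH26 and XTH29 were below 16 on all arrays, and XTH32 (AT2G36870) read 74.5 and 97.9 in dC27, against 49.6 and 68.9 in VC and 60.9 and 36.4 in Col-0, a difference of 0.56 that did not pass (limma, adjusted p = 0.084). XTH33 had -0.72 in dC27 (limma, adjusted p = 0.070). It passed there as lower with the replicate block and against Col-0 alone, and not against VC alone. XTH33 also passed in dC27 without Col-0 replicate 2 or dC27 replicate 1. XTH21 passed as higher in dC27 with the replicate block or without dC27 replicate 1, and XTH32 without Col-0 replicate 1. Among the CSL genes CSLA01 and CSLC12 were below 16 throughout, and CSLC5 and CSLC6 differed from the controls by -0.27 and 0.05 in dC27. GAUT15 (AT3G58790) ranged from 46.2 to 91.7 over the arrays, with differences of -0.19 in FL3, -0.05 in dC26 and 0.18 in dC27. Of TBL28, TBL30, TBL32, TBL34 and TBL35, which belong to the group of xylan acetyltransferases, 0 of 5 were called in any comparison with all arrays, with TBL34 at 17.4 and 32.0 in dC26 against 10.1 to 13.6 on the control arrays (0.54 ± 0.13, adjusted p = 0.057). TBL34 passed in dC26 when either dC27 array, both, or dC26 replicate 1 was left out.

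Few wall genes outside these families were found by name in the platform annotation. Of the pectin genes ADPG1, PME61, AT4G02300 (PME39) and ATPMEPCRB (PME41), the lignin genes HCT, 4CL8 and LAC16, the xylan genes IRX15 and GUT2 (IRX10), the cellulose-orienting gene COB and the wall-sensing kinases FER and THE1, none was called in any of the 7 comparisons, so the counts were 0 of 4, 0 of 3, 0 of 2, 0 of 1 and 0 of 2. The nearest was COB in dC27, with -0.46 ± 0.14 (limma, adjusted p = 0.055). Of all probe sets 2.69% were called in FL3, 13.1% in the dC lines, 2.71% in dC26 and 16.7% in dC27. The share was 2.95% for dC26 against dC27, 0.207% for FL3 against the dC lines and 0.0264% for VC against Col-0. With so few genes, 0 calls cannot be read as a lack of change. At an unadjusted p under 0.05 these 12 genes held 0 in FL3, 2 in the dC lines, 2 in dC26, 3 in dC27 and 2 for dC26 against dC27, against 13.2%, 27.5%, 18.3%, 29.1% and 17.7% of all probe sets. For FL3 against the dC lines and VC against Col-0 they held 0, against 10.8% and 7.01% of all probe sets. Of the marker lists of other cell types, the root hair list held 2 of 7 genes, which are EXPA7 and EXPA18, and the guard cell list 2 of 4, of which the guard cell regulator FAMA (FMA) fell by 0.57 on the log2 scale in the dC lines (limma, adjusted p = 0.025). The other, SPCH, had 0.17 in the dC lines and 0.27 in dC26 and did not pass (adjusted p = 0.12 and 0.10). SPCH read 8.93 to 18.1 over the arrays and FMA 51.3 to 130, so the sum is mostly FMA. The summed intensity of the guard cell genes was 81.5 to 93.6 in dC26 and 64.2 to 66.4 in dC27, against 87.8 to 110 in VC and 108 to 141 in Col-0, and the part of this in the results was not tested. Secondary-wall xylem had 1 of 11 markers, GUT2, and root endodermis, phloem, shoot epidermis and dividing cells had 0, so no level of those cell types is given.

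Between the control lines VC and Col-0, 0 of 57 wall genes were called by limma, with 0.0264% of all probe sets called, and 2 at an unadjusted p under 0.05, against 7.01% of all probe sets. Single Col-0 arrays stood apart from the other controls in several of the genes above: XTH16 read 427 and 204, TBL45 213 and 115 and EXLB1 200 and 113 in Col-0 replicates 1 and 2. Both VC arrays lay between the 2 Col-0 arrays in XTH16 and TBL45.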

How the data were processed

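RNA of seedlings of 5 lines was measured on 10 Affymetrix arrays, 2 per line. The authors deposited 1 linear intensity per probe set and array; how probes were summarised, background-corrected or normalized, and with what software, is not given in the sources used here. The precision is limited by the number of arrays. The 64 control probe sets were left out and log2(intensity + 16) of 22746 probe sets was fitted with limma 3.58.1 in R 4.3.3, with 1 mean per line, 5 residual degrees of freedom and a variance prior with an intensity trend; p-values are two-sided and adjusted by Benjamini-Hochberg over all probe sets within each of 7 comparisons, at a threshold of 0.05. Adjusted p-values in the text are from this fit, or, where an array, control line or other setting is named, from a refit with that change. Replicate numbers did not pair the lines (correlations of deviations from -0.20 to 0.0859 over 10 pairs of lines). Gene names came from the platform annotation, which can be old, and loci and neighbours from the RefSeq table of TAIR10.1; all 57 genes matched a locus, and 2 probe sets of these families that list 2 genes were left out. Genes were named where they passed in any comparison, had the highest level or the largest difference of their family, or belonged to the marker lists; EXPA7, EXPA9, EXPA20, EXPB1, TBL34, XTH32 and the genes split between the dC27 arrays were also named after their values were seen. The members and lists were chosen with earlier results of these data known. The fit was tested on simulated data. Differences of 2 log2 units were added there to probe sets that were neither dim nor highly variable. Smaller or dimmer changes were not covered. Alternatives changed the normalization, pseudocount, filter on dim probe sets, variance prior, controls, replicate block and arrays used. Figures were drawn with matplotlib 3.10.9.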

Additional observations from a re-analysis of the deposited data

Results flagged for a closer look

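The difference between the 2 lines with truncated TaSIN passed its own test (limma, Benjamini-Hochberg adjusted p under 0.05) for 5 wall genes. Of all probe sets 2.95% passed, 2.12% as higher and 0.822% as lower in dC26. The calls rested unequally on single arrays, as given above, and those of CSLA03 and EXPA4 ended whichever array was left out. As log2 differences of dC26 against dC27 these were 1.61 for XTH16, 1.57 for TBL45, 1.23 for TBL25, 0.93 for CSLA03 and -0.75 for EXPA4. With 2 arrays per line, no line was large enough to look for a single outlying array by a gap test.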

How the results depend on the processing

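Over all alternatives 107 of the counts of called wall genes stayed within 1.5 times the reported count, or at 0 where that was 0, and 31 did not. A count can stay while the genes change. In dC26 without the intensity trend the 1 called gene was TBL37 and not TBL21, with 3.14% of all probe sets called. In dC26 the count of 1 became 0 with the replicate block, quantile normalization, a pseudocount of 64, VC alone or Col-0 alone, and 2 with the dimmest probe sets left out. In the settings with 0, from 0.976% (VC alone) to 2.51% (pseudocount of 64) of all probe sets were called, against 2.71% as reported. With the dimmest left out 4.89% of those kept were called. In the dC lines the count of 8, with 13.1% of all probe sets called, became 5 against Col-0 alone (9.2%). It was 4 without both dC27 arrays (4.42%), an alternative chosen after seeing the data. With the replicate block the count was 9 in the dC lines (11.7% of all probe sets), where EXPA18 also passed. It was 17 in dC27 (14.8%, with 15 and 16.7% without the block) and 4 for dC26 against dC27 (1.96%, with 5 and 2.95% without it). In the remaining comparisons it was 0, with 0.00879% to 2.14% of all probe sets called. Leaving out 1 array at a time gave 0 to 1 called genes in FL3, 5 to 14 in the dC lines, 0 to 4 in dC26, 12 to 17 in dC27, 0 to 7 for FL3 against the dC lines, 0 to 10 for dC26 against dC27 and 0 for VC against Col-0. In these refits the share of all probe sets called changed as well, in each of the 7 comparisons, and not always in step with the wall genes. A change in the count of wall genes therefore need not be particular to them. In the dC lines the log2 difference of EXLA1 (-0.77) was -1.57 without dC27 replicate 1 and 0.035 without replicate 2. That of GAUT15 (0.07) was -0.065 and 0.20, and -0.046 without both. That of XTH16 (-0.49) was 0.31 without both. The cause of these differences was not tested. Over all probe sets the count called in the dC lines was 2972, and 1033 in the 2-group fit. That fit left out FL3 and took the 2 dC lines as replicates of each other, and the 2 control lines likewise. Every gene had 1 probe set, so averaging probe sets gave no other value. Of the 57 genes 17 lay under 16 on all arrays, where small changes could not be measured, and 2 arrays per line limit every call.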

Other observations

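The wall genes that differed between the dC27 arrays were not alone. Among 13513 probe sets with a single gene, ranked by the log2 difference of dC27 replicate 1 over replicate 2, EXLA3 stood at rank 16, EXLA1 at 19, XTH18 at 25 and XTH19 at 53. The first rank was AT4G29780, with 1816 and 31.1 in the dC27 arrays and 69.8 to 426 on the other 8. The zinc finger gene STZ, known for its response to abiotic stress, was at rank 5, with 1324 and 81.8 in dC27 and 334 to 1167 on the other 8 arrays.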
